A study of Homo sapiens with 27 samples.

Results

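A set of 6 CDK inhibitor genes of the KIP and INK4 families was followed by RNA-Seq in U2OS cells, a human osteosarcoma line. The 6 genes were chosen by name, as CDKN1B and CDKN1C of the KIP family and CDKN2A, CDKN2B, CDKN2C and CDKN2D of the INK4 family, out of 55882 gene symbols in each count file. The 27 libraries were prepared from poly(A) RNA of 3 stably transduced lines, with 3 independent replicates at each of 3 stages of culture. The control line, labelled WT, carried the blank pLKO.1 vector, and the MMP2sh1 and MMP2sh2 lines carried it with one of a pair of shRNAs against MMP2, the gene of a matrix metalloproteinase that the study examines as a protease of histone H3. RNA was collected when the cultures were subconfluent (day −2), confluent (day 0) or overconfluent (day 2). Each stage was thus tied to a day, so culture density and time in culture cannot be told apart. All lines, the control included, had been transduced and selected, so that no untransduced cells were compared, and each hairpin was measured in 1 line.

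CDK inhibitors bind the kinases that drive cells from G1 into S phase. The KIP proteins p27 (CDKN1B) and p57 (CDKN1C) bind complexes of cyclins with CDK2 and act across several cyclin and CDK pairs, while the INK4 proteins p16 (CDKN2A), p15 (CDKN2B), p18 (CDKN2C) and p19 (CDKN2D) bind CDK4 and CDK6 and keep them from cyclin D. CDKN2A also encodes ARF, a protein read in another frame from its own first exon, which stabilises p53. p27 is known for accumulating in cells that become dense or quiescent, p15 for its induction by TGF-beta, and U2OS is known as a line that lacks p16.

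The genes lie at separate places of the genome except for CDKN2A and CDKN2B. In GRCh37, the build that the submitters name hg19, CDKN1B is on chromosome 12 from 12838432 to 12875303 on the plus strand, CDKN1C on chromosome 11 from 2904443 to 2907005 on the minus strand, CDKN2C on chromosome 1 from 51426417 to 51440306 on the plus strand and CDKN2D on chromosome 19 from 10677136 to 10679735 on the minus strand. CDKN2A (21967751 to 21995300) and CDKN2B (22002902 to 22009304) are neighbours on the minus strand of chromosome 9. Their antisense neighbour CDKN2B-AS1 runs on the plus strand from 21994138 to 22128102 and thus spans CDKN2B and overlaps the end of CDKN2A nearest to it. The exons of the canonical transcripts of the 6 genes overlapped no exon of another annotated gene. Exons of other transcripts, such as the first exon of ARF, were not checked.

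RefSeq promoters, the 250 bases before an annotated start in GRCh38.p14, were held for 5 of the 6 members, with 8 starts in all, and CDKN1C had none in the table. CDKN1B and CDKN2D had many reads and rose from the subconfluent to the overconfluent stage in every line. CDKN2A and CDKN2B had few or no reads. CDKN2B also rose in the control, from 6 summed reads when subconfluent to 81 when confluent, so the contrast is one of level. Shown here for that contrast are 4 of the promoter windows, those of these genes, with CDKN2A taken at the start of p16. Each is written 5′ to 3′ on the strand of its gene, with capitals for GC boxes (GGGCGG or its complement CCGCCC) and CCAAT boxes (CCAAT or its complement ATTGG).
CDKN1B, chr12:12717118-12717367, plus strand: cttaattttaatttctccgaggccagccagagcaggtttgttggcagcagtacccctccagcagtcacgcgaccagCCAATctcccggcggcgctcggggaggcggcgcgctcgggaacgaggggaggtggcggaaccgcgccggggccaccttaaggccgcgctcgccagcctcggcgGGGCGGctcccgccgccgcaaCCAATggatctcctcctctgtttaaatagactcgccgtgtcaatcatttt
CDKN2D, chr19:10568980-10569229, minus strand: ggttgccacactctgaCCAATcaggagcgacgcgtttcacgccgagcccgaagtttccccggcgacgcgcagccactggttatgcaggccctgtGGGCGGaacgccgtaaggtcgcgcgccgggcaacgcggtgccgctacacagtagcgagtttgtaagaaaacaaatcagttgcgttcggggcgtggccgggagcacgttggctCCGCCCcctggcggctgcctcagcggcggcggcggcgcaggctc
CDKN2A, chr9:21974858-21975107, minus strand: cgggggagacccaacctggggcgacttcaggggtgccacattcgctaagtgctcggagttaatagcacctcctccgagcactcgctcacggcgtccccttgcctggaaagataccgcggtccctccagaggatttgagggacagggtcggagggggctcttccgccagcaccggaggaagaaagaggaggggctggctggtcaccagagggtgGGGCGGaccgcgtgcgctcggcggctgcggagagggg
CDKN2B, chr9:22009306-22009555, minus strand: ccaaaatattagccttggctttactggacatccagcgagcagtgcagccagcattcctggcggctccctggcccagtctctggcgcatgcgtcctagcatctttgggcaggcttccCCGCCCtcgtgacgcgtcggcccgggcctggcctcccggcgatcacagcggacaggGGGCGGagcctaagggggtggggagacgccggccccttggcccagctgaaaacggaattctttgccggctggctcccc

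The 4 windows held 27 CpG for CDKN1B, 33 for CDKN2D, 20 for CDKN2A and 18 for CDKN2B, against a median of 11 over 35116 promoters of the same length. At least 18 CpG were held by 36.8% of all promoters, at least 20 by 32.4%, at least 27 by 17.7% and at least 33 by 8.15%, so that the counts of CDKN2A and CDKN2B are common ones. Of the windows not shown, that of the ARF start held 24 CpG and the 3 of CDKN2C held 7, 35 and 10. The CDKN1B window held 1 GC box and 2 CCAAT boxes, that of CDKN2D 2 GC boxes and 1 CCAAT box, that of CDKN2A 1 GC box and that of CDKN2B 2 GC boxes. A GC box was present in 42.6% of all promoters and a CCAAT box in 32.0%, and no GC box overlapped a CCAAT box in the windows shown. The letters of a FOXO element (GTAAACA, in 2.98% of promoters), of an E2F site (TTTCCCGC, 1.39%) and of a SMAD box (GTCTAGAC, 0.182%) were not found on either strand in any of the 8 member windows. Such matches describe the sequence and say nothing of binding.

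The values are whole-number read counts per gene, from 33580129 to 59374327 reads on genes per library. They were scaled to CPM, counts relative to the library total on genes, with the TMM factors of edgeR, which ranged from 0.925 to 1.05. MMP2, the target of the hairpins, was at 17.3% to 19.8% of control in MMP2sh1 and at 48.6% to 61.9% in MMP2sh2 over the 3 stages. Of 9 genes listed as osteoblast lineage markers, 5 had a mean of at least 1 CPM, led by COL1A1 (mean 1237 CPM) and VIM (mean 770 CPM). IBSP had no read, and SP7, BGLAP and COL1A2 stayed under 1 CPM in every library. None of 4 leukocyte markers reached a mean of 1 CPM, and of 3 endothelial markers 1 did (VWF, mean 3.37 CPM). The summed level of the osteoblast list lay between 1876 and 2267 CPM over the 9 groups, that of 5 epithelial markers between 377 and 736 CPM and that of 3 neural markers between 87.0 and 252 CPM, and their part in the results was not tested. In this bulk RNA, a change in the number of cells that use a gene and a change in RNA per cell cannot be told apart. Reads were counted without strand, so reads of CDKN2A or CDKN2B and of their antisense neighbour can be separated only by their exons.

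Many reads were measured for 4 members in each of the 27 libraries, and few or none for the other 2. Per kilobase of the canonical transcript, the mean level over all libraries was 79.6 CPM for CDKN2C, 34.5 for CDKN1B, 9.51 for CDKN1C, 8.86 for CDKN2D, 0.0402 for CDKN2B and 0.0303 for CDKN2A. When the length of all annotated exons together was used, these levels were 26.2 CPM per kilobase for CDKN2C, 8.98 for CDKN1B, 8.39 for CDKN2D, 6.80 for CDKN1C, 0.0387 for CDKN2B and 0.00762 for CDKN2A. CDKN2C, the p18 gene, thus had the highest level and CDKN2A the lowest under both lengths, while CDKN1C and CDKN2D changed places. Between the highest and the lowest of the 9 group means, the range was 2.01-fold for CDKN1B, 1.81-fold for CDKN1C, 1.69-fold for CDKN2D and 1.25-fold for CDKN2C. The median coefficient of variation within a group of 3 libraries was 4.45%, 6.65%, 8.12% and 3.91% for these genes.

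**Figure D1:**
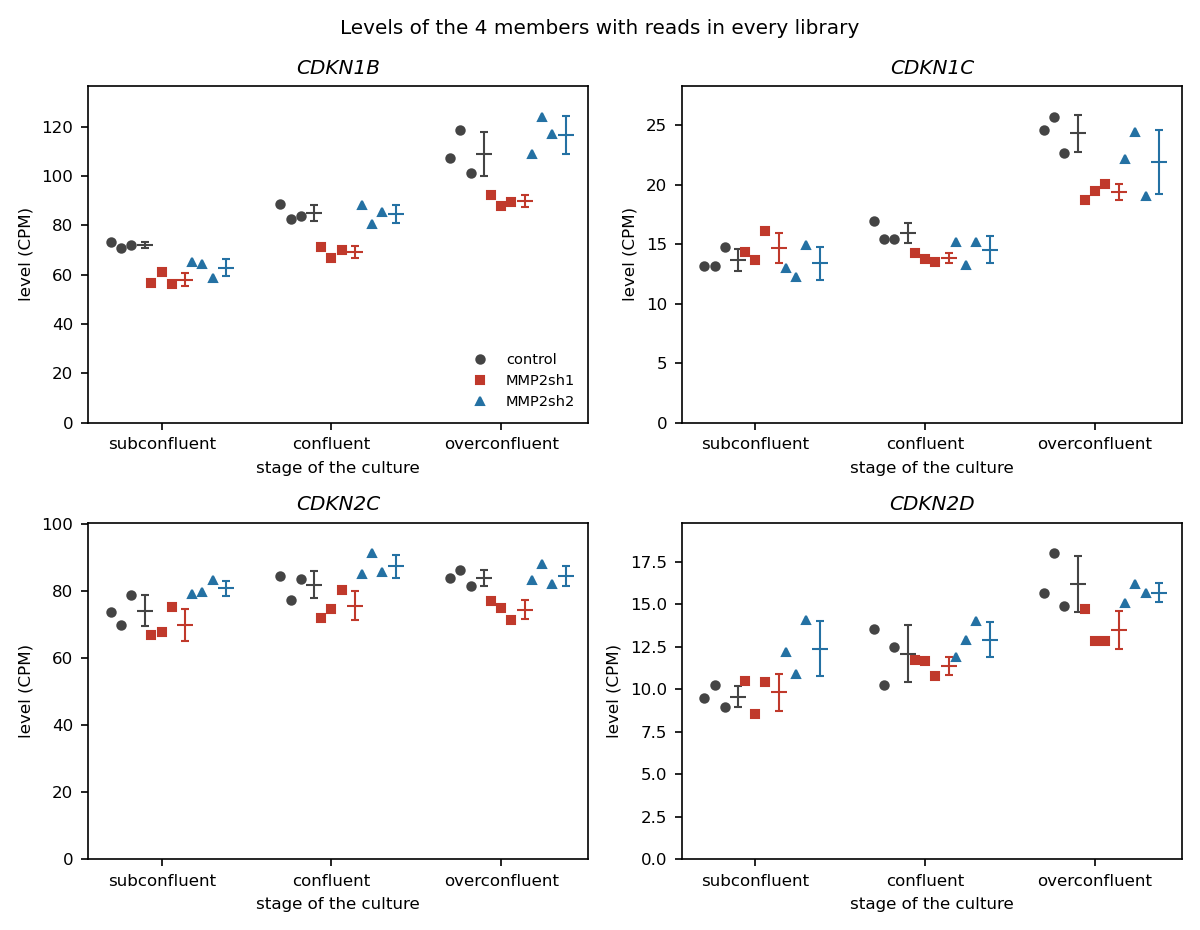
Level in CPM (linear axes from 0) of CDKN1B, CDKN1C, CDKN2C and CDKN2D in each of the 27 libraries, by stage of the culture and line, with the mean and SD of 3 libraries beside the points. CDKN1B rose with each stage in all 3 lines and was lower in MMP2sh1 than in the control at every stage, and CDKN2C stayed between 66.7 and 91.3 CPM throughout.

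CDKN1B, which encodes p27, was lower in MMP2sh1 than in the control at every stage and rose as the cultures became dense in all lines. At the subconfluent stage it was at 73.2, 70.9 and 71.9 CPM in the control libraries, at 56.8, 61.1 and 56.1 in MMP2sh1 and at 65.3, 64.5 and 58.7 in MMP2sh2. At the confluent stage the control libraries were at 88.7, 82.5 and 83.7 CPM, those of MMP2sh1 at 71.2, 66.6 and 70.1 and those of MMP2sh2 at 88.1, 80.7 and 85.3. At the overconfluent stage the levels were 107, 119 and 101 CPM in the control, 92.5, 87.8 and 89.5 in MMP2sh1 and 109, 124 and 117 in MMP2sh2. The MMP2sh1 libraries lay below all control libraries at each stage, while those of MMP2sh2 did so when subconfluent and overlapped the control later.

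In MMP2sh1, the log2 fold change of CDKN1B from control was −0.31 at the subconfluent stage (standard error 0.06, adjusted p = 0.00138, edgeR), −0.30 at the confluent stage (standard error 0.05, adjusted p = 7.16e-05, edgeR) and −0.28 at the overconfluent stage (standard error 0.06, adjusted p = 0.00162, edgeR). These values correspond to 80.5%, 81.5% and 82.5% of the control mean. Each of the 3 calls was kept under every alternative run, omission of any single library included. In MMP2sh2 the value was −0.20 when subconfluent (standard error 0.06, adjusted p = 0.0381, edgeR). That call was lost when any library except MMP2sh2 replicate 1 was left out, with values between −0.22 and −0.15. At the later stages, MMP2sh2 differed from control by −0.02 (95% interval −0.13 to 0.09) and 0.10 (−0.03 to 0.22), and neither passed the threshold. The comparisons of MMP2sh1 and MMP2sh2 share their control libraries.

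From stage to stage, CDKN1B rose in both steps and in each line, and the libraries of successive stages did not overlap. From subconfluent to confluent, the log2 fold change was 0.24 in the control (standard error 0.05), 0.26 in MMP2sh1 (0.06) and 0.42 in MMP2sh2 (0.06), with edgeR adjusted p of 0.000442, 0.00238 and 1.13e-05. From confluent to overconfluent it was 0.38 in the control, 0.39 in MMP2sh1 and 0.49 in MMP2sh2, with a standard error of 0.06 in each line and adjusted p of 1.82e-06, 3.69e-06 and 5.50e-08. Over the whole expansion, the mean of the overconfluent libraries was at 151% of the subconfluent mean in the control, at 155% in MMP2sh1 and at 186% in MMP2sh2, with log2 fold changes of 0.60 (standard error 0.06, adjusted p = 7.56e-10), 0.63 (0.07, 2.86e-08) and 0.90 (0.07, 7.65e-13), from edgeR. The difference between the MMP2sh1 and control rises was 0.03 (95% interval −0.15 to 0.21). The rise in MMP2sh2 exceeded that in the control by 0.29 (interval 0.11 to 0.47, adjusted p = 0.0506, edgeR), just beyond the threshold. In order of level, the 9 groups ran from overconfluent MMP2sh2 down to subconfluent MMP2sh1, and 5 of the 8 pairs of neighbours in that order overlapped in their libraries.

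**Figure D2:**
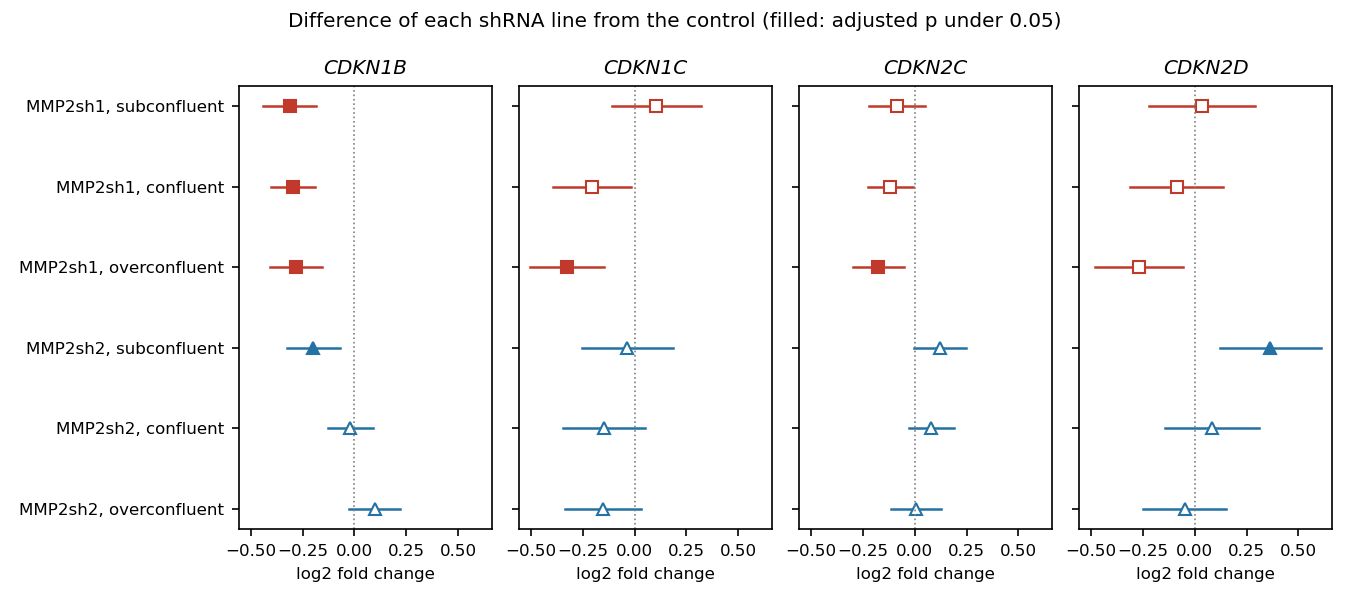
Log2 fold change (points) with its 95% interval (lines) of each shRNA line against the control at the same stage, for 4 members, with filled symbols where the adjusted p was under 0.05. CDKN1B lay between −0.31 and −0.28 in MMP2sh1 at the 3 stages, and the values of CDKN1C (−0.33), CDKN2C (−0.18) and CDKN2D (−0.27) in that line were lowest when overconfluent.

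CDKN1C, the p57 gene, rose between the confluent and the overconfluent stage in all lines, and its rise over the whole expansion was smaller in MMP2sh1 than in the control. In the control it was at 13.1, 13.2 and 14.7 CPM when subconfluent, at 16.9, 15.5 and 15.4 when confluent and at 24.6, 25.7 and 22.6 when overconfluent. In MMP2sh1 the values were 14.3, 13.7 and 16.1, then 14.3, 13.7 and 13.5, then 18.7, 19.5 and 20.1 CPM. In MMP2sh2 they were 13.0, 12.2 and 15.0, then 15.2, 13.2 and 15.1, then 22.2, 24.4 and 19.0 CPM. The overconfluent libraries stood above all earlier ones in each line, while subconfluent and confluent libraries overlapped in both hairpin lines.

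From confluent to overconfluent, CDKN1C rose by 0.63 in the control, 0.50 in MMP2sh1 and 0.61 in MMP2sh2 on the log2 scale (standard errors 0.09, 0.09 and 0.10, adjusted p = 6.07e-07, 6.27e-05 and 9.53e-06, edgeR). The step from subconfluent to confluent did not pass the threshold, at 0.23 in the control (adjusted p = 0.0634), −0.08 in MMP2sh1 and 0.12 in MMP2sh2, all from edgeR, and the control step had an unadjusted p of 0.0237 in that fit. Without control subconfluent replicate 3 it was 0.28 and passed the threshold. Over the whole expansion CDKN1C rose by 0.84 in the control, 0.40 in MMP2sh1 and 0.72 in MMP2sh2 on this scale (standard errors 0.09, 0.10 and 0.11, adjusted p = 7.79e-09, 0.00182 and 1.06e-06, edgeR). The rise was smaller in MMP2sh1 than in the control by 0.43 on this scale (interaction −0.43, standard error 0.13, adjusted p = 0.0419, edgeR). This difference kept its sign but lost its call in 8 of the 12 fits that left out one library, with values from −0.50 to −0.38 over the 12, and it also lost its call without the filter on low counts (adjusted p = 0.0505, edgeR). Against control, CDKN1C in MMP2sh1 was at 0.11 when subconfluent, −0.21 when confluent and −0.33 when overconfluent, where it was called (standard error 0.09, adjusted p = 0.00867, edgeR). The last value was −0.29 and not called (adjusted p = 0.0718) without control overconfluent replicate 2. MMP2sh2 did not pass the threshold at any stage, with values of −0.04, −0.15 and −0.15 and intervals that all held 0.

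CDKN2A, which encodes p16 and ARF, was at or near 0 in these cells. It had 30 reads over the 27 libraries, found in 8 of them. No read was counted in the 6 subconfluent and confluent control libraries or in the 3 subconfluent MMP2sh2 libraries. With 138490237 reads on genes in the subconfluent control group, a count of 0 allows up to 0.0217 RPM, that is, CPM without the TMM factor. The largest count was 14 reads in replicate 1 of subconfluent MMP2sh1, whose other replicates had none. Replicate 1 of the overconfluent control had 6 reads, replicate 2 of overconfluent MMP2sh2 had 4, and each of the other 5 libraries with reads had 1 or 2. Reads were thus unevenly spread over the replicates of a group. CDKN2A did not pass the filter on low counts in any comparison, so no difference between its groups was tested with that filter. Intervals and limits of this kind cover counting error only.

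CDKN2B, the p15 gene next to CDKN2A, had few reads, and most of them came from dense control cultures. Of 174 reads in all, 158 were in the control, 7 in MMP2sh1 and 9 in MMP2sh2. The subconfluent control libraries had 4, 1 and 1 reads, the confluent ones 38, 13 and 30 and the overconfluent ones 26, 22 and 23. In MMP2sh1 there were 0, 0 and 1 reads when subconfluent, 0, 0 and 1 when confluent and 4, 1 and 0 when overconfluent. In MMP2sh2 no library had a read before the overconfluent stage, at which the counts were 1, 8 and 0. At the confluent and overconfluent stages, every control library thus had more reads than any library of the hairpin lines.

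**Figure D3:**
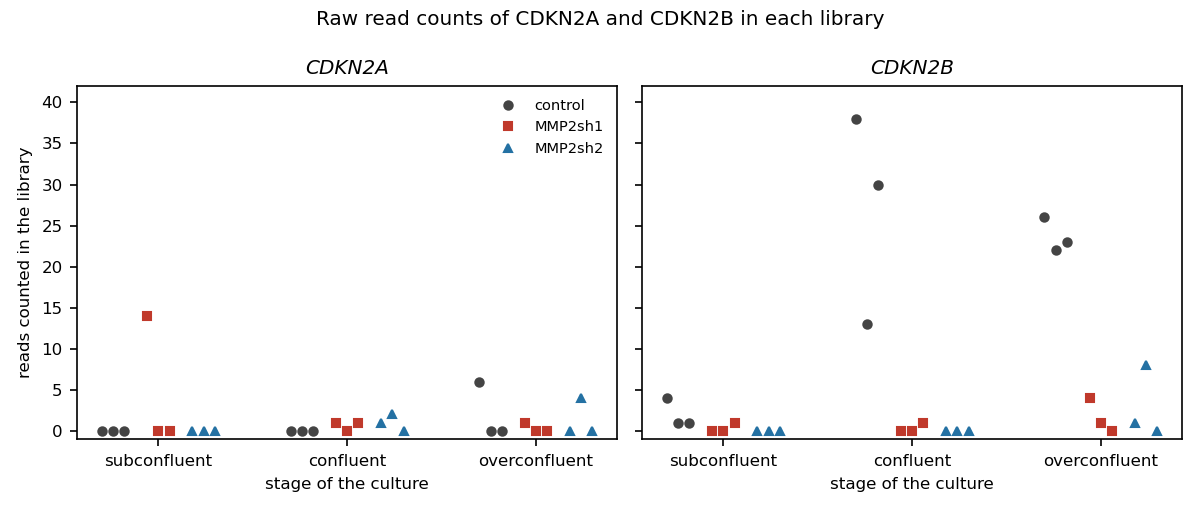
Reads counted for CDKN2A and CDKN2B in each of the 27 libraries (points, linear axis of raw counts), by stage of the culture and line. CDKN2B had 13 to 38 reads in the 6 confluent and overconfluent control libraries and at most 8 in any library of MMP2sh1 or MMP2sh2, while CDKN2A was at 0 in most libraries.

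Summed over the 3 libraries, confluent CDKN2B was at 0.620 RPM in the control (95% exact binomial interval 0.493 to 0.771) and at 0.00753 in MMP2sh1 (0.000191 to 0.0420). With 81 reads against 1, the control level was 82.4 times that of MMP2sh1, with a counting interval from 14.4 to 3293. MMP2sh2 had no read at this stage. The control was 22.9-fold above a floor of 3 reads over the group, a point value without counting error. The 95% lower limit of the ratio with the counting error of both groups was 18.2. At the overconfluent stage, 71 control reads stood against 5 in MMP2sh1, a ratio of 14.7 (interval 6.01 to 46.6), and against 9 in MMP2sh2, a ratio of 8.46 (4.22 to 19.3). All intervals and limits in this paragraph cover the counting error of summed reads and not the spread between libraries. In overconfluent MMP2sh2, 8 of the 9 reads came from 1 library. At the subconfluent stage, 6 control reads stood against 1 in MMP2sh1 (ratio 5.62, interval 0.682 to 259) and 0 in MMP2sh2. The control was 1.92-fold above the MMP2sh2 floor of 3 reads as a point value, and the 95% lower limit of that ratio was 1.13. CDKN2B passed the filter on low counts only where dense control libraries were part of the fit. The hairpin lines were thus tested against the control only where the control was high. Within the control, its level when confluent was 14.3 times the subconfluent level (interval 6.30 to 40.2), and from confluent to overconfluent the libraries overlapped.

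In the fits, CDKN2B was lower in confluent MMP2sh1 (adjusted p = 6.20e-05), confluent MMP2sh2 (4.25e-05), overconfluent MMP2sh1 (0.00109) and overconfluent MMP2sh2 (0.00987), by edgeR with Benjamini-Hochberg adjustment. Fitted folds against groups near 0 depend on the prior count and are left out here. These p-values, and those of the control rise below, hold for a gene tested only because the dense control libraries carried it past the filter. DESeq2 gave no adjusted p for CDKN2B in these hairpin comparisons, and a stricter filter removed the gene. With no filter on low counts, edgeR gave adjusted p of 1.01e-06, 1.88e-07, 0.000241 and 0.00534 in the same order. The first 3 of the calls made with the filter survived the omission of any single library. The call in overconfluent MMP2sh2 was lost without control replicate 1 (adjusted p = 0.0833), without MMP2sh2 replicate 1 (0.0791), without MMP2sh2 replicate 3 (0.0609) and in a fit of all 27 libraries (0.0816). Without MMP2sh2 replicate 2, which held 8 of the 9 reads, the call was kept (adjusted p = 0.00196, edgeR). In the control, the rise from subconfluent to confluent (adjusted p = 0.000345) and to overconfluent (9.24e-05) was called by edgeR, also without any one of the libraries. Whether the rise of CDKN2B over the expansion differed from that of the control could not be resolved at these counts (adjusted p of the interaction 0.796 in MMP2sh1 and 0.716 in MMP2sh2, edgeR).

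CDKN2C, the p18 gene, changed little with line or stage. In the control libraries it was at 73.7, 69.8 and 78.9 CPM when subconfluent, at 84.6, 77.3 and 83.6 when confluent and at 84.0, 86.3 and 81.6 when overconfluent. In MMP2sh1 the values were 66.7, 67.6 and 75.3, then 72.0, 74.5 and 80.4, then 77.1, 74.8 and 71.3 CPM. In MMP2sh2 they were 79.2, 79.7 and 83.3, then 85.1, 91.3 and 85.8, then 83.3, 87.9 and 82.2 CPM. All 3 MMP2sh1 means (69.9, 75.6 and 74.4 CPM) thus lay below the MMP2sh2 mean of the same stage (80.7, 87.4 and 84.5 CPM). Every pair of neighbours in the order of the 9 groups overlapped. The log2 fold change over the expansion was 0.19 in the control (standard error 0.06, adjusted p = 0.00581, edgeR), and this call was lost without control subconfluent replicate 2, at 0.14. In MMP2sh1 and MMP2sh2 it was 0.09 (95% interval −0.06 to 0.23) and 0.07 (−0.06 to 0.20), and neither interaction passed the threshold. In the control the first step was called at 0.15 (adjusted p = 0.0366, edgeR), and leaving out any of 4 libraries (subconfluent replicates 1 and 2 and confluent replicates 1 and 3) ended the call, at 0.11 to 0.15, as did DESeq2 on the same libraries (adjusted p = 0.0533) and edgeR on all libraries (adjusted p = 0.0598).

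Against control, CDKN2C was called only in overconfluent MMP2sh1, at −0.18 (standard error 0.06, adjusted p = 0.0459, edgeR), or 88.6% of the control mean. That call was lost when any library except MMP2sh1 replicate 1 was left out, with values between −0.20 and −0.15 over the 6 fits, and also without the filter on low counts (adjusted p = 0.0506, edgeR). The hairpin lines differed from each other, since CDKN2C was lower in MMP2sh1 than in MMP2sh2 by −0.21 when subconfluent (adjusted p = 0.0491) and by −0.20 when confluent (adjusted p = 0.00615), with non-overlapping libraries at all 3 stages. At the overconfluent stage the value was −0.19 with an adjusted p of 0.0655, all from edgeR. The subconfluent call was lost when any library except MMP2sh1 replicate 3 was left out (−0.27 to −0.18), with median-of-ratios scaling (adjusted p = 0.05, edgeR) or without the filter (adjusted p = 0.0566, edgeR), and the confluent call without MMP2sh1 replicate 1, at −0.17.

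CDKN2D, the p19 gene, rose over the expansion in all lines. In the control it was at 9.50, 10.3 and 8.98 CPM when subconfluent, at 13.5, 10.2 and 12.5 when confluent and at 15.7, 18.0 and 14.9 when overconfluent. In MMP2sh1 the values were 10.5, 8.56 and 10.4, then 11.7, 11.6 and 10.8, then 14.8, 12.9 and 12.9 CPM. In MMP2sh2 they were 12.2, 10.9 and 14.1, then 11.9, 12.9 and 14.0, then 15.1, 16.2 and 15.7 CPM. Overconfluent libraries exceeded all subconfluent ones of the same line, by a log2 fold change of 0.76 in the control, 0.46 in MMP2sh1 and 0.35 in MMP2sh2 (standard errors 0.11, 0.12 and 0.11, adjusted p = 7.55e-07, 0.00284 and 0.0084, edgeR). The MMP2sh2 value was 0.26 and not called without MMP2sh2 subconfluent replicate 2. Neither rise differed from that of the control past the threshold, with interactions of −0.30 in MMP2sh1 (95% interval −0.63 to 0.03, adjusted p = 0.31, edgeR) and −0.42 in MMP2sh2 (−0.73 to −0.10, adjusted p = 0.12, edgeR).

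In the control, CDKN2D rose from subconfluent to confluent by 0.34 (adjusted p = 0.0235) and from there to overconfluent by 0.44 (adjusted p = 0.00142). The first of these calls was lost without subconfluent replicate 1 or 3 or confluent replicate 1 or 3, at 0.25 to 0.33. The second step was called at 0.25 in MMP2sh1 (adjusted p = 0.0496) and at 0.30 in MMP2sh2 (adjusted p = 0.0153), all by edgeR. The MMP2sh1 call was lost when any library except overconfluent replicate 3 was left out (0.19 to 0.29), and with DESeq2 on the same or all libraries (adjusted p = 0.0905 and 0.085), edgeR on all libraries (0.0828) or no filter (0.0974). The MMP2sh2 call was lost without confluent replicate 1 (0.24) or overconfluent replicate 2 (0.28). The first step was at 0.22 in MMP2sh1 and 0.06 in MMP2sh2, with intervals that held 0. Against control, CDKN2D was higher in subconfluent MMP2sh2, by 0.36 (standard error 0.12, adjusted p = 0.0455, edgeR). This call was lost when any library except MMP2sh2 replicate 2 was left out, with values between 0.27 and 0.45. In overconfluent MMP2sh1 the value was −0.27 (95% interval −0.48 to −0.06, adjusted p = 0.0839, edgeR), and it was −0.33 and called without MMP2sh1 replicate 1. The other 4 values lay between −0.09 and 0.08, none of them called.

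**Figure D4:**
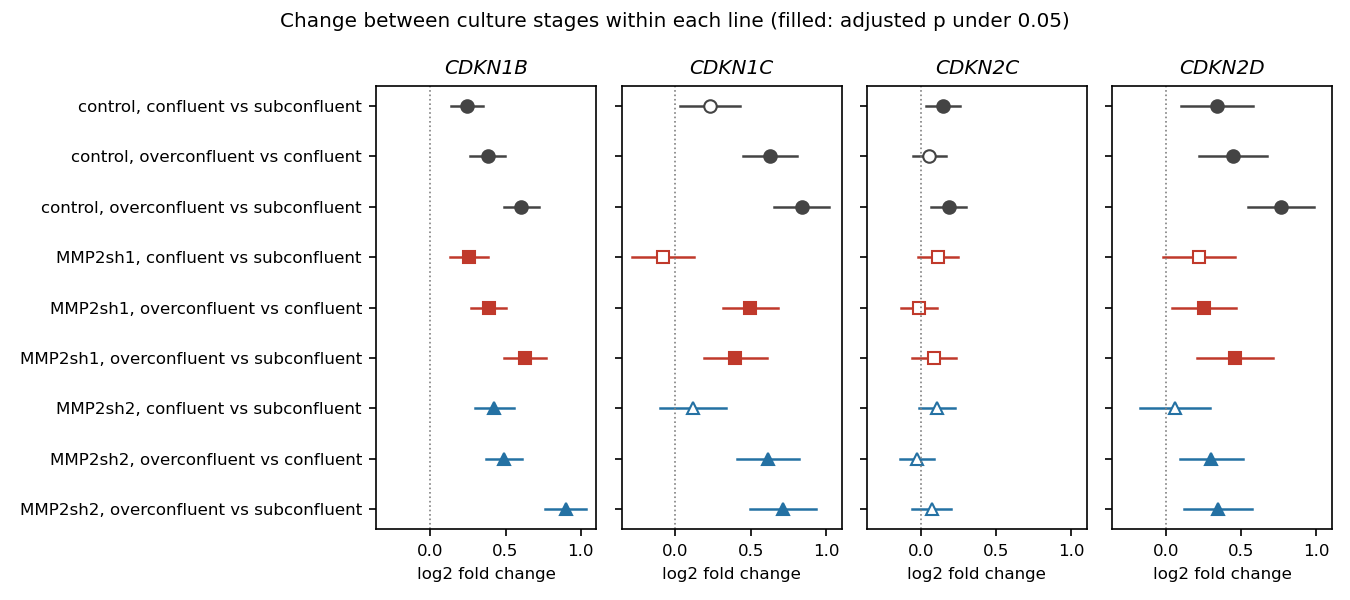
Log2 fold change (points) with its 95% interval (lines) between stages within each line, for 4 members, with filled symbols where the adjusted p was under 0.05. CDKN1B was called in all 9 comparisons, CDKN1C and CDKN2D were called over the whole expansion in each line, and CDKN2C was called in the control alone.

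The counts of members called are read against the share of all genes called in the same comparison. In MMP2sh1 against control, 1 of 4 members tested was called at the subconfluent stage (11.6% of all genes tested), 2 of 5 at the confluent stage (16.8%) and 4 of 5 at the overconfluent stage (14.8%), and all of these were lower. The confluent and overconfluent counts include CDKN2B, which was tested there only through the control libraries, and without it they are 1 of 4 and 3 of 4. With a library left out, the overconfluent count ran from 2 to 5, and 4 was not kept in any of these fits. CDKN2C lost its call without any library except MMP2sh1 replicate 1, and without that replicate CDKN2D was called as well. The count was 2 without control replicate 2. In MMP2sh2 against control, 2 of 4 members were called when subconfluent (11.0% of all genes), namely CDKN1B lower and CDKN2D higher. When confluent 1 of 5 was called (12.9%) and when overconfluent 1 of 5 (6.32%), in both cases CDKN2B. Since CDKN2B was tested there only through the control libraries, the counts without it are 0 of 4 at both stages, with 0 of these 4 also by DESeq2 and none at an unadjusted p under 0.05. The subconfluent count was 0 or 1 whenever a library was left out, and the overconfluent count was 0 without control replicate 1, MMP2sh2 replicate 1 or MMP2sh2 replicate 3.

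Between stages within a line, all calls were to higher levels. In the control, 4 of 5 members tested rose from subconfluent to confluent (35.5% of all genes were called in either direction), 3 of 5 from confluent to overconfluent (41.4%) and 5 of 5 over the whole expansion (56.8%), and 28.1% of all genes were called higher over that expansion. CDKN2B passed the filter there only through the dense libraries in which it is high, and without it the counts are 3 of 4, 3 of 4 and 4 of 4. The count for the first step was between 2 and 4 with a library left out, and it was 2 without subconfluent replicate 1, confluent replicate 1 or confluent replicate 3. The count over the control expansion was 4 without subconfluent replicate 2. In MMP2sh1, 1 of 4 members rose in the first step (32.7%), 3 of 4 in the second (46.0%, and 2 of 4 without any library except overconfluent replicate 3) and 3 of 4 over the expansion (54.9%). In MMP2sh2, 1 of 4 rose in the first step (30.3%), 3 of 4 in the second (45.5%) and 3 of 4 over the expansion (54.7%). The MMP2sh2 counts were 2 of 4 in the second step without confluent replicate 1 or overconfluent replicate 2, and over the expansion without subconfluent replicate 2.

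Between the hairpin lines, 1 of 4 members was called at the subconfluent stage (10.7% of all genes), 2 of 4 at the confluent stage (18.5%) and 1 of 4 at the overconfluent stage (7.86%). All were lower in MMP2sh1, which was the line with less MMP2. Each hairpin was measured in 1 line, so the level of MMP2 and other differences between the lines cannot be told apart. CDKN1B was lower in MMP2sh1 than in MMP2sh2 by −0.28 when confluent (standard error 0.05, adjusted p = 0.000189, edgeR) and by −0.38 when overconfluent (standard error 0.06, adjusted p = 0.000177, edgeR), and the value was −0.12 when subconfluent (95% interval −0.27 to 0.03). Neither call depended on a single library. The subconfluent count was 0 without any of 5 libraries, all but MMP2sh1 replicate 3. The confluent count was 1 without MMP2sh1 replicate 1, and the overconfluent count was 2 without MMP2sh1 replicate 1. For the difference of the expansion from that of the control, 1 of 5 members was called in MMP2sh1 (7.40% of all genes), which was CDKN1C. In MMP2sh2 0 of 5 were called by edgeR (4.98% of all genes), 2 had an unadjusted p under 0.05, and DESeq2 called 1, CDKN1B, whose difference was 0.29 in edgeR. One library left out gave 0 or 1 called in either interaction, and the MMP2sh2 count became 1 without control overconfluent replicate 2, MMP2sh2 subconfluent replicate 1 or MMP2sh2 overconfluent replicate 1.

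The partners of these inhibitors were taken from lists of cyclins and CDKs of G1 and S phase, of pocket proteins with E2F factors, and of factors that act on p27. Over the expansion, 9 of the 13 genes of the cyclin and CDK list were called lower and 1 higher in the control, 8 and 2 in MMP2sh1 and 8 and 1 in MMP2sh2, with a median log2 fold change of −0.23, −0.24 and −0.28 where the median of all genes was 0.03, 0.04 and 0.05. Of all genes tested in these comparisons, 28.6% were called lower and 28.1% higher in the control, 27.7% and 27.3% in MMP2sh1 and 27.1% and 27.7% in MMP2sh2. CDK4 (−0.42 to −0.25 over the 3 lines), the kinase that the INK4 proteins bind, and CDK2 (−0.28 to −0.17), a kinase bound by p27, fell in each line. CCNE1 (−0.63 to −0.24), CCNA2 (−0.74 to −0.67), MNAT1 (−0.29 to −0.21), an assembly factor of the CDK-activating kinase, and CDC25A (−1.04 to −1.01), whose product removes inhibitory phosphates from CDK2, also fell in all 3. CCND2, which encodes cyclin D2, rose in all 3 (0.17 to 0.37).

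Against control, at most 3 of these 13 genes were called higher and at most 3 lower in any of the 6 shRNA comparisons, with 3 of each in confluent MMP2sh1, where 8.26% of all genes were called higher and 8.58% lower. CCND1, the gene of cyclin D1, was lower in both lines when subconfluent (−0.63 in MMP2sh1 and −0.23 in MMP2sh2) and when confluent (−0.54 and −0.25), and it was called in neither line when overconfluent (−0.15 and −0.04). CCNE1 was lower in MMP2sh1 at all 3 stages (−0.28, −0.25 and −0.20) and in overconfluent MMP2sh2 (−0.23). CCND2 was higher in MMP2sh1 at all 3 stages (0.24, 0.32 and 0.35).

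Of 13 pocket protein and E2F genes, 7 were called lower and 3 higher over the expansion in the control, 4 and 3 in MMP2sh1 and 5 and 4 in MMP2sh2. Read against all genes (27.1% to 28.6% called lower and 27.3% to 28.1% higher over the 3 lines), the MMP2sh1 counts lie near the background. RBL2, the gene of the pocket protein p130 of quiescent cells, rose in all 3 lines (0.51 to 0.58), as did E2F5 (0.40 to 0.87) and TFDP2 (0.56 to 0.72). E2F1 (−0.73 to −0.51), E2F2 (−0.55 to −0.38), E2F4 (−0.31 to −0.16) and TFDP1 (−0.59 to −0.53) fell in all 3. RB1, the gene of the retinoblastoma protein, was lower than control in confluent and overconfluent MMP2sh1 (−0.26 and −0.23) and in subconfluent and confluent MMP2sh2 (−0.22 and −0.27).

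Of 11 genes that act on p27 or its transcription, 4 were called lower and 4 higher over the expansion in the control, 4 and 1 in MMP2sh1 and 3 and 1 in MMP2sh2. With 28.6% of all genes called lower and 28.1% higher in the control, its counts lie near the background. SKP2, which recognises p27 for degradation, fell in every line (−0.73 to −0.66), and so did its cofactor CKS1B (−0.29 to −0.15) and UBAC1 (−0.68 to −0.47), a subunit of another p27 ubiquitin ligase. FOXO4, a factor known to activate CDKN1B, rose in all 3 (0.68 to 0.90). Against control, UBAC1 was higher in subconfluent MMP2sh1 (0.19, adjusted p = 0.0431, edgeR). SKP2 (−0.15 to −0.02), CKS1B (−0.13 to 0.08) and FOXO4 (−0.18 to 0.06) did not pass the threshold in any of the 6 shRNA comparisons.

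Polycomb complexes are known to silence the locus of CDKN2A and CDKN2B. Of 16 subunit genes, 7 were called higher and 3 lower over the expansion in the control, 7 and 3 in MMP2sh1 and 6 and 3 in MMP2sh2, where 27.3% to 28.1% of all genes were called higher and 27.1% to 28.6% lower. CBX7 (0.52 to 0.78), PHC1 (0.41 to 0.63), PHC2 (0.78 to 1.11), EZH1 (0.21 to 0.40) and JARID2 (0.25 to 0.52) rose in all 3 lines, and EED fell (−0.33 to −0.24). CBX7 was higher than control in subconfluent and confluent MMP2sh2 (0.25 and 0.26) and was at 0.04 and −0.15 in MMP2sh1 at these stages, neither called. In subconfluent MMP2sh2, 4 of the 16 were called higher and 2 lower (4.71% and 6.33% of all genes), PHC1 (0.20) and PHC2 (0.23) among the higher ones. In confluent MMP2sh1, 4 were called lower (8.58% of all genes), PHC1 (−0.33) and PHC2 (−0.25) among them. JARID2 was lower in overconfluent MMP2sh2 (−0.28).

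Around CDKN2A and CDKN2B, MTAP, the methylthioadenosine phosphorylase gene on the far side of CDKN2A, rose over the expansion by 0.59 in the control, 0.66 in MMP2sh1 and 0.62 in MMP2sh2 and did not pass the threshold in the 6 shRNA comparisons (−0.19 to 0.10). DMRTA1, the next protein-coding gene past CDKN2B, rose by 1.23, 1.13 and 1.00 in these lines. DMRTA1 was lower in MMP2sh1 at all 3 stages (−0.50, −0.73 and −0.60, adjusted p = 0.0226, 6.38e-05 and 3.62e-05, edgeR) and in overconfluent MMP2sh2 (−0.53, adjusted p = 0.000195, edgeR). In subconfluent and confluent MMP2sh2 it was at −0.30 and −0.31 and not called. CDKN2B-AS1, the antisense RNA, did not pass the filter in these comparisons. Summed over 3 libraries, it had 4, 7 and 5 reads at the 3 stages in the control, 1, 1 and 5 in MMP2sh1 and 1, 0 and 7 in MMP2sh2.

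Around CDKN1C, which lies in an imprinted region with KCNQ1OT1 and PHLDA2, SLC22A18 rose over the expansion in all 3 lines (1.22 to 1.37), and so did its antisense gene SLC22A18AS (1.05 to 2.23), whose reads cannot be told from those of SLC22A18 where their exons overlap. PHLDA2 fell in MMP2sh1 (−0.33) and MMP2sh2 (−0.34) and was at −0.26 in the control, not called. KCNQ1 (−0.52 to 0.20), KCNQ1OT1 (−0.28 to 0.15) and NAP1L4 (−0.14 to −0.05) did not pass the threshold over the expansion. The only one of these 6 neighbours called against control was KCNQ1OT1, higher in overconfluent MMP2sh2 (0.57, adjusted p = 0.0185, edgeR). Beside the other members, APOLD1 next to CDKN1B rose over the expansion in all lines (0.64 to 0.97). AP1M2, near CDKN2D, fell in all (−2.29 to −1.83) and was higher than control in confluent MMP2sh1 (0.35) and in confluent and overconfluent MMP2sh2 (0.42 and 0.47). SLC44A2, also near CDKN2D, was lower than control in both lines when confluent (−0.26 and −0.25) and overconfluent (−0.40 and −0.31).

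As a description of likeness, log2 CPM was correlated across the 27 libraries, which share lines and stages, with that of 15136 genes with a mean of at least 1 CPM. The genes most like CDKN1B were MGEA5 (Pearson r 0.963), CCNG2 (0.957), which encodes cyclin G2, and PTN (0.948). The genes most like CDKN1C were DDIT4 (0.955), CA11 (0.947) and SEMA4B (0.947). CDKN2D was most like C12orf57 (0.936) and MYL12A (0.898), and CDKN2C most like SMARCC2 (0.864), LBH (0.850) and TMEM132A (0.845). Among the members, r was 0.828 for CDKN1B with CDKN1C, 0.777 for CDKN1B with CDKN2D and 0.776 for CDKN1C with CDKN2D. With CDKN2C it was 0.569 for CDKN1B, 0.357 for CDKN1C and 0.647 for CDKN2D. The 3 members that rose over the expansion in every line thus had a higher r with one another than with CDKN2C. They were grouped by that rise in these same libraries, so the contrast follows in part from the grouping and is a description only.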

How the data were processed

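Poly(A) RNA of 27 libraries was sequenced (3 lines, 3 stages and 3 replicates). The deposited files hold raw read counts per gene symbol, which the authors made with Trim Galore 0.6.0, STAR 2.7.3a on hg19 and HTSeq 2.0.0, counting exons without strand. The annotation release is not given in the sources used here. The 5 HTSeq summary lines (16.8% to 19.1% of a library) were left out of library sizes and tests. The total on genes was 33580129 to 59374327 reads, and no library pair agreed within sampling noise (chi-square per degree of freedom 4.74 to 24.6).

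Counts were tested in R 4.3.3 with the quasi-likelihood test of edgeR 4.0.16, with TMM scaling and filterByExpr (minimum count 10, minimum total 15), in each comparison on its own libraries. Adjusted p-values are Benjamini-Hochberg values over all genes tested, the threshold was 0.05, tests were two-sided, and a standard error is that of the log2 fold change. Levels of rare reads carry exact binomial 95% intervals and their ratios conditional binomial ones, with a floor of 3 counts over a group. The scripts were tested on simulated data.

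The members and lists were chosen with earlier results of these data known. The text names all 6 members, list genes called with one sign over the expansion of all 3 lines or in at least 3 of the 6 shRNA comparisons, the neighbours of CDKN1C, CDKN2A and CDKN2B, and the 3 genes most correlated with each member above a mean of 1 CPM. One gene that this rule names is not reported here. Alternatives were DESeq2 1.42.0, a fit of all libraries, median-of-ratios scaling, other filters, a replicate block and leaving out each library. Positions are from GENCODE on GRCh37 and promoters from RefSeq on GRCh38.p14, which were not converted into each other.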

Additional observations from a re-analysis of the deposited data

Results flagged for a closer look

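For 5 results the effect differed between the hairpin lines or from the control by a test of the difference itself, in each case edgeR with adjustment over all genes. CDKN1B was lower in MMP2sh1 than in MMP2sh2 by −0.28 on the log2 scale at the confluent stage and by −0.38 at the overconfluent stage, with all MMP2sh1 libraries below all MMP2sh2 libraries at both. CDKN2C was lower in MMP2sh1 than in MMP2sh2 by −0.21 when subconfluent, a call lost in 5 of 6 fits that left out one library, with median-of-ratios scaling and without the filter, and by −0.20 when confluent, a call lost without MMP2sh1 replicate 1. The rise of CDKN1C over the expansion differed between MMP2sh1 and the control by −0.43, a call lost in 8 of 12 fits that left out one library, without the filter and under the replicate block.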

How the results depend on the processing

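Of 42 values called, 265 of 280 recomputations under other tools, filters, scalings or blocks and 208 of 258 with one library left out kept the call and the direction, and the others lost the call without turning. Of 47 values not called, 6 recomputations with a library left out and 12 others reached the threshold. Those that turned sign did so only with a library left out, and ranged as follows. Against control, CDKN2D in MMP2sh1 was at −0.0195 to 0.12 when subconfluent and −0.19 to 0.0043 when confluent, CDKN1C in subconfluent MMP2sh2 at −0.12 to 0.0262, CDKN1B in confluent MMP2sh2 at −0.0500 to 0.0140, CDKN2D in MMP2sh2 at −0.0220 to 0.17 when confluent and −0.11 to 0.0339 when overconfluent, and CDKN2C in overconfluent MMP2sh2 at −0.0189 to 0.0309. From confluent to overconfluent, CDKN2B in the control was at −0.32 to 0.30, CDKN2C in MMP2sh1 at −0.0454 to 0.0334 and CDKN2C in MMP2sh2 at −0.0505 to 0.0032, and CDKN2D in MMP2sh2 from subconfluent to confluent at −0.0274 to 0.16. The interactions ran from −0.0183 to 0.10 (CDKN1B, MMP2sh1), −3.26 to 0.16 (CDKN2B, MMP2sh1) and −1.41 to 1.46 (CDKN2B, MMP2sh2).

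Counts of members called moved by more than 1.5 times with one library left out, to 0 to 1 (MMP2sh2 subconfluent), 2 to 5 (MMP2sh1 overconfluent), 0 to 1 (MMP2sh2 overconfluent), 2 to 4 (control, first step), 0 to 1, 1 to 2 and 1 to 2 (between hairpins at the 3 stages) and 0 to 1 (each interaction). Within that tolerance, they ran from 4 to 5 for the control expansion and from 2 to 3 for the second step of both hairpin lines and the MMP2sh2 expansion. With DESeq2, on the same or on all libraries, and with at least 10 counts in every library, the count was 1 in confluent MMP2sh1 and 0 in confluent and overconfluent MMP2sh2. DESeq2 gave no adjusted p for CDKN2B there, and the filter removed it. In overconfluent MMP2sh2 the count was also 0 with edgeR on all libraries. Between the hairpins when subconfluent it was 2 with DESeq2 or edgeR on all libraries and 0 with median-of-ratios scaling or no filter, and when overconfluent it was 2 with DESeq2 on either set or edgeR on all libraries. The MMP2sh1 interaction count was 0 without a filter. The MMP2sh2 interaction count was 1 with DESeq2 on either set, edgeR on all libraries, no filter or at least 10 counts. The cause was not tested except where stated. Scalings moved the median of all genes by at most 0.0175.

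Replicate numbers did not pair the samples, since the 54 correlations of deviations ran from −0.0248 to 0.0364, and every sample was closest to its own number in 2 of 18 comparisons. With the replicate block, the count was 1 in subconfluent MMP2sh2, 2 between the hairpins when subconfluent and when overconfluent, and 0 for the MMP2sh1 interaction, where CDKN1C was at −0.43 (adjusted p = 0.0547, edgeR). The block also ended the calls of CDKN2D in subconfluent MMP2sh2 (adjusted p = 0.0537), of CDKN2C in overconfluent MMP2sh1 (0.101, leaving 3 members called) and of CDKN2D in the second step of MMP2sh1 (0.0604, leaving 2), all by edgeR. CDKN2A and CDKN2B are limited by depth, since a count of 0 in a group allows 0.0217 to 0.0271 RPM.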
